A study of Mus musculus with 10 samples.

Results

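The genes described here are 10 that put peptides on MHC class I, the surface complex by which a cell shows fragments of its own proteins to CD8 T cells and NK cells. They were taken by gene symbol from the deposited RNA-seq tables of CD34- hematopoietic stem cells (HSCs) of the mouse, and are 10 of the 33393 genes in those tables. H2-K1 and H2-D1 encode the class I heavy chains of C57BL/6 mice and B2m encodes beta-2-microglobulin, the light chain they share. Tap1 and Tap2 encode the paired chains of the pump that carries peptides into the endoplasmic reticulum, and Tapbp encodes tapasin, which holds empty class I molecules at that pump. Psmb8, Psmb9 and Psmb10 encode the catalytic subunits that replace Psmb5, Psmb6 and Psmb7 in the immunoproteasome, the form of the proteasome that cuts peptides suited to class I. Nlrc5 encodes the transactivator of class I promoters.

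The cells were sorted as Lin- Sca-1+ c-Kit+ CD34- Flt3- bone marrow cells from 8-week-old C57BL/6 mice. Control mice carried Reg1flox/flox, the floxed allele of the gene for the ribonuclease Regnase-1 (Zc3h12a), and the other mice carried Vav1-iCre; Reg1flox/flox (Reg1Δ/Δ), so that both groups share the floxed allele. Vav1-iCre is active in all blood cells, so the deletion is not limited to stem cells. The libraries fall by their titles into set A, with 3 control and 3 Reg1Δ/Δ libraries, and set B, with 2 and 2. The question asked of them was what the loss of Regnase-1 changes in CD34- HSCs, and levels are transcripts-per-million (TPM) values, summed over the transcripts of a gene unless a single transcript or a list is named.

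Class I genes are expressed in nearly every nucleated cell. Interferons, through transcription factors such as IRF1, and NF-kB are the known inducers of the whole pathway, and they act on response elements near the start of class I genes. NLRC5 has no DNA-binding domain of its own and joins a complex of RFX and NF-Y factors at the same promoters.

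Before the results, 2 features of the libraries bear on every value. Zc3h12a itself was at 1.28 to 6.07 TPM in the controls and at 2.08 to 10.3 TPM in the libraries labelled Reg1Δ/Δ, a log2 difference of 0.83 (SE 0.28, limma adjusted p = 0.0314) that goes against the label. The tables do not show reads by exon, so a transcript without the floxed part could not be told from a complete one, and the groups are called by their labels throughout. The 7 stem cell marker genes (Procr, Mecom, Hlf, Slamf1, Fgd5, Hoxb5 and Meis1) summed to 133 to 389.5 TPM in the controls and to 9.69 to 19.3 TPM in the libraries labelled Reg1Δ/Δ, where all 7 were below every control of their set. Of the 4 genes of the sorting antigens, Kit, Cd34 and Flt3 were also lower, and Ly6a (Sca-1) had a log2 difference of 0.92 that did not pass (limma adjusted p = 0.155), with means of 99.4 against 290 TPM in set A, where the groups overlapped, and 71.0 against 120 TPM in set B, where it passed alone (0.0366). The B cell list summed to 59.5 to 367 TPM in the controls against 2.37 to 7.26 TPM, the T and NK cell list to 5.15 to 14.9 against 0.863 to 1.90 TPM, the macrophage and dendritic cell list to 8.08 to 23.8 against 1.67 to 3.84 TPM, the neutrophil list to 2802 to 12882 against 271 to 871 TPM, the megakaryocyte list to 88.9 to 449 against 18.1 to 96.9 TPM and the endothelial and stromal list to 22.4 to 59.6 against 3.29 to 4.55 TPM. Of the neutrophil list, S100a8, S100a9, Ngp, Camp and Ltf were lower, while Elane and Mpo overlapped in set B and did not pass (limma adjusted p = 0.111 and 0.0683). In set A both were below every control and passed alone (limma adjusted p = 0.0483 and 0.0295). The erythroid list overlapped between groups (438 to 2049 against 547 to 963 TPM), with Klf1, Epor and Tfrc higher and Hba-a1 and Hbb-bt lower in the libraries labelled Reg1Δ/Δ. Of their defining markers, Cd3e was at most 0.435 TPM, Pax5 at most 0.0312 TPM, Cd79a at most 1.74 TPM and Itgax at most 0.142 TPM in the libraries labelled Reg1Δ/Δ. The 2 library sets also differed in the kind of transcript measured: protein-coding transcripts took 46.2 to 49.1% of the TPM in set A and 73.5 to 81.1% in set B. In bulk samples, fewer cells of a type and less RNA per cell cannot be told apart, and the part of cell composition in the results below was not tested.

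Class I promoters are known to be read through short shared elements, and 4 of the 5 windows that held at least 2 of the motifs searched are shown for that reason. The RefSeq windows (GRCm38.p6, from 250 bases before to 50 after the start) matched 8 of the 10 genes by symbol. The 250 bases before the start are printed 5′ to 3′ on the strand of the gene, with matches to any of 5 motifs in capitals. The motifs, searched on both strands of the whole window, were the interferon-stimulated response element core GAAANNGAAA, the gamma-activated sequence TTCNNNGAA, the CCAAT box that NF-Y binds (ATTGG on the other strand), the TGACG core of CRE-like X2 boxes (CGTCA on the other strand) and the kappa B core GGGATTCCC.
H2-K1 (chr17:34000348-34000597, minus strand): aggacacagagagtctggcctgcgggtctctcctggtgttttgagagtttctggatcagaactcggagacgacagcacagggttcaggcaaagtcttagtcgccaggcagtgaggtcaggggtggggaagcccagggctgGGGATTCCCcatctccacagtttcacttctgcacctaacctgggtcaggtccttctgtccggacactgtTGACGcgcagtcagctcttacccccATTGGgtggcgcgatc
H2-D1 (chr17:35262844-35263093, plus strand): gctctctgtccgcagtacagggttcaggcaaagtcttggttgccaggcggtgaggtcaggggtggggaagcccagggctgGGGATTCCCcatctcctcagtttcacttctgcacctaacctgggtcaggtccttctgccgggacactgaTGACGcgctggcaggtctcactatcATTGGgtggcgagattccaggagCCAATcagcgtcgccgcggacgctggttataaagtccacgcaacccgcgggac
B2m (chr2:122147437-122147686, plus strand): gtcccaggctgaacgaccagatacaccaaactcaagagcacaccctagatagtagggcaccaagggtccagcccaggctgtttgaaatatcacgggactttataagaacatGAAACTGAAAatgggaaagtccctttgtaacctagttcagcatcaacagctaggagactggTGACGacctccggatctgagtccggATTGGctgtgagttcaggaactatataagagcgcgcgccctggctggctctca
Tap1 (chr17:34187306-34187555, plus strand): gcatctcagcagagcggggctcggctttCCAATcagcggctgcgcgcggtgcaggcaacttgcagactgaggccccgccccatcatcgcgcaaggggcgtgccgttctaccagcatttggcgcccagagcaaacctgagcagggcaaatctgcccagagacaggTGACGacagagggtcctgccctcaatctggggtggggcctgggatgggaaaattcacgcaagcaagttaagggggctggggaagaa

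The H2-K1 and H2-D1 stretches aligned over 190 bases, of which 87.4% were identical, with the kappa B core, the TGACG core and the ATTGG box in the same order. The kappa B core lay at bases -110 to -102 of H2-K1 and at -170 to -162 of H2-D1, and it occurred in 0.37% of the 27025 promoter windows of the table. B2m held the interferon-stimulated core GAAACTGAAA at -139 to -130, a motif found in 3.49% of windows, followed by TGACG at -78 to -74 and ATTGG at -53 to -49. The Tap1 window overlapped that of Psmb9 over 275 bases, because both genes start from the same stretch in opposite directions, and it held 1 CCAAT box and 1 TGACG core. Of the 8 windows, 6 held a CCAAT box (37.9% of all windows) and 5 held TGACG (21.0%). The Psmb8 window held a gamma-activated sequence, TTCCCAGAA at -97 to -89, a motif in 8.47% of windows. The Tapbp window held only CCAAT boxes, and the Psmb10 window held none of the 5 motifs as spelled here. The Tapbp window (chr17:33919228-33919527) lies inside the gene as placed by GENCODE (chr17:33915899-33929292), as do those of H2-D1, Psmb8 and Psmb9. For these genes the stretch before the GENCODE start was not searched, so a motif absent from the window is not shown to be absent there. Only exact matches were searched, so any near match in the 8 windows, those of H2-K1 and H2-D1 included, went unmarked. No position of a motif says whether a factor was bound in these cells.

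Across both library sets, 8 of the 10 genes were higher in the libraries labelled Reg1Δ/Δ and none was lower, in a fit of limma with the library set as a covariate and an adjusted p under 0.05. Of all 12874 genes tested, 15.0% were higher and 37.9% lower. The median log2 difference of the 10 genes was 0.55, against -0.25 for all genes tested, and the count of members lower was also 0 at an unadjusted p under 0.05, at which 41.3% of all genes were lower. For these 8 genes every library labelled Reg1Δ/Δ lay above every control of its own set, in both sets, as it did for 12.7% of all genes tested. The 8 were H2-K1, H2-D1, B2m, Tap1, Tapbp, Psmb8, Psmb9 and Psmb10, and the remaining pair, Tap2 and Nlrc5, overlapped between groups in both sets. The immunoproteasome subunits Psmb10 and Psmb9 differed the most, the pump subunit Tap1 and tapasin came next, and the heavy chains H2-K1 and H2-D1 differed the least of the 8.

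**Figure D1:**
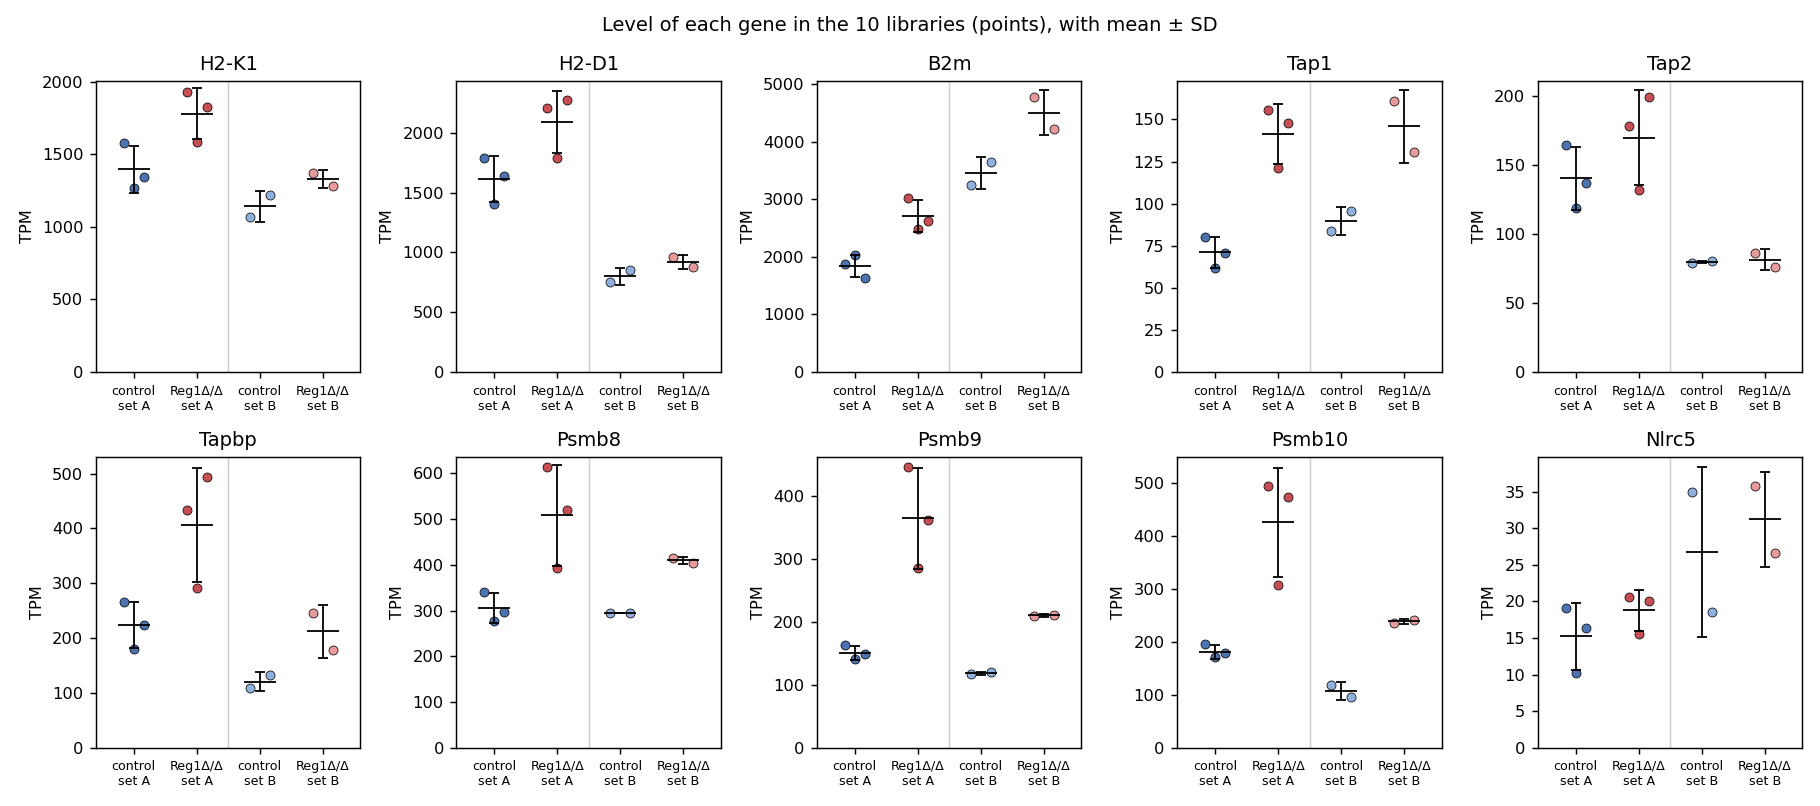
TPM (linear axis) of the 10 genes in each library, with 1 point per library, black lines for the mean and SD, and the groups of set A left and of set B right of the grey line. For Psmb9 the 3 Reg1Δ/Δ libraries of set A lay at 285 to 445 TPM against 141 to 163 TPM in the controls, while Nlrc5 and Tap2 overlapped in both sets.

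The heavy chain genes were already among the most abundant transcripts of the controls. H2-K1 (chr17:33996017-34000347, minus strand) lay between percentile 98.8 and 99.6 of the genes tested in every library. In set A, H2-K1 was at 1577, 1267 and 1345 TPM in the controls and at 1931, 1584 and 1828 TPM in the libraries labelled Reg1Δ/Δ. In set B it was at 1067 and 1216 TPM against 1371 and 1284 TPM. The groups did not overlap, but the lowest Reg1Δ/Δ library of set A (1584 TPM) was only just above the highest control (1577 TPM). The log2 difference was 0.30 (SE 0.11, 95% confidence interval 0.06 to 0.54, limma adjusted p = 0.0397), a 1.28-fold difference of mean TPM in set A and 1.16-fold in set B.

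H2-D1 (chr17:35262730-35267499, plus strand) showed the same narrow margin. Its levels in set A were 1792, 1406 and 1643 TPM in the controls and 2212, 1793 and 2272 TPM in the libraries labelled Reg1Δ/Δ, and in set B 752 and 851 TPM against 965 and 882 TPM. The log2 difference of H2-D1 was 0.31 (SE 0.12, 95% confidence interval 0.05 to 0.57, limma adjusted p = 0.0484). Neither heavy chain passed in a set alone, where the limma adjusted p was 0.0866 for H2-K1 and 0.0910 for H2-D1 in set A, and 0.261 and 0.298 in set B. H2-K1 fell out of the calls in 7 and H2-D1 in 8 of the 10 fits that left out 1 library, where their log2 differences stayed between 0.24 and 0.36 and their limma adjusted p reached 0.0962 and 0.116. H2-K1 stayed past the threshold without set A control replicate 1, set B control replicate 2 or set A Reg1Δ/Δ replicate 2, and H2-D1 without set B control replicate 2 or set A Reg1Δ/Δ replicate 2. The heavy chains also share sequence with other class I genes, so reads can be split between them: 22.8% of the 31-base words of H2-K1 transcripts and 26.7% of those of H2-D1 occurred in another gene of the GENCODE M21 transcripts, most often in each other (11.1% and 13.8%).

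B2m (chr2:122147686-122153083, plus strand), on another chromosome and with no 31-base word in another gene, was higher with a wider margin. In set A its levels were 1871, 2024 and 1637 TPM in the controls and 3014, 2489.9 and 2625 TPM in the libraries labelled Reg1Δ/Δ. In set B they were 3253 and 3652 TPM against 4774 and 4222 TPM. No library labelled Reg1Δ/Δ reached down to a control of its set, and the means differed 1.47-fold in set A and 1.30-fold in set B. The log2 difference of B2m was 0.49 (SE 0.11, 95% confidence interval 0.24 to 0.73, limma adjusted p = 0.00423). B2m passed in set A alone (limma adjusted p = 0.0187), and not in set B alone (0.138) or with no covariate for the set (0.258). Set beside the sum of H2-K1 and H2-D1, both per length, B2m stood at 0.548 to 0.757 in set A controls and at 0.640 to 0.737 in set A libraries labelled Reg1Δ/Δ, which overlapped, and at 1.77 to 1.79 against 1.95 to 2.04 in set B. The mean of that ratio differed 1.13-fold and 1.12-fold between genotypes, and by more between the 2 sets.

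Of the peptide pump and its partner, Tap1 and Tapbp passed the test and Tap2 did not. Tap1 (chr17:34187553-34197225, plus strand) was at 80.4, 61.9 and 70.9 TPM in the set A controls and at 155, 121 and 148 TPM in the set A libraries labelled Reg1Δ/Δ. In set B Tap1 was at 83.8 and 95.5 TPM against 161 and 131 TPM. These groups were far apart in both sets, with means 1.99-fold and 1.63-fold higher, and the log2 difference of Tap1 was 0.87 (SE 0.13, 95% confidence interval 0.58 to 1.16, limma adjusted p = 0.000384). Tap1 was past the threshold in set A alone (limma adjusted p = 0.00316) and not in set B alone (0.0910).

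Tapbp (chr17:33915899-33929292, plus strand), the gene of tapasin, was at 265, 181 and 224 TPM in the set A controls and at 434, 290.5 and 493 TPM in the set A libraries labelled Reg1Δ/Δ. In set B Tapbp was at 108 and 133 TPM against 246 and 178 TPM. The groups of Tapbp did not overlap in either set, and the spread among the Reg1Δ/Δ libraries was wider than among controls (SD 104 against 42.0 TPM in set A). The log2 difference of Tapbp was 0.82 (SE 0.18, 95% confidence interval 0.42 to 1.23, limma adjusted p = 0.00361), with 0.84 in set A and 0.80 in set B. Tapbp passed in set A alone (limma adjusted p = 0.0270), and not in set B alone (0.131) or with no covariate for the set (0.101).

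Tap2 (chr17:34203527-34216321, plus strand), the other chain of the pump, did not pass the test. It was at 165, 119 and 137 TPM in the set A controls and at 178, 132 and 199.6 TPM in the set A libraries labelled Reg1Δ/Δ, and at 79.3 and 80.3 TPM against 86.7 and 76.0 TPM in set B. The groups overlapped in both sets, and the log2 difference of Tap2 was 0.17 (SE 0.14, 95% confidence interval -0.15 to 0.49, limma adjusted p = 0.347), an interval that includes differences as large as that of B2m. The ratio of Tap1 to Tap2 within a library was 0.487 to 0.520 in set A controls and 0.741 to 0.918 in set A libraries labelled Reg1Δ/Δ, and 1.06 to 1.19 against 1.72 to 1.86 in set B. Most of the Tap2 level came from transcripts that encode no full pump subunit: 32.5 to 38.9% of it in set A and 63.8 to 75.9% in set B was a single retained-intron transcript, and the full-length coding transcript of 3442 bases took 3.44 to 4.31% and 9.47 to 24.1%.

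With the longest protein-coding transcript of each gene alone, a setting chosen after seeing these shares, Tap2 was at 4.29 to 6.61 TPM in set A controls and 5.69 to 7.07 TPM in set A libraries labelled Reg1Δ/Δ, which overlapped, and at 7.52 and 12.7 TPM against 20.9 and 18.3 TPM in set B, which did not. On that transcript the log2 difference of Tap2 was 0.56 (limma adjusted p = 0.0255), and 9 of the 10 genes were higher where 18.2% of the 8093 genes tested were. Nlrc5 was the exception there, with a log2 difference of 0.42 (limma adjusted p = 0.0667).

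**Figure D2:**
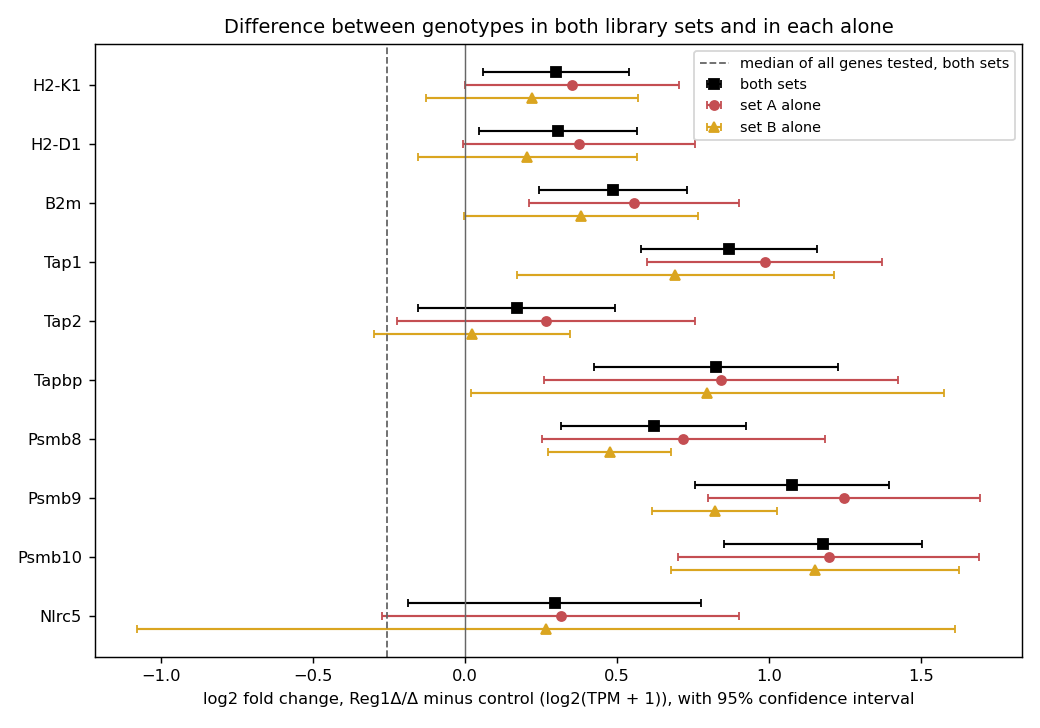
Log2 difference between Reg1Δ/Δ and control libraries (points) with its 95% confidence interval (bars) for each gene, in both library sets together (black squares), set A alone (red circles) and set B alone (yellow triangles). The dashed line marks the median of all genes tested, -0.25, and all 10 genes lie to its right in each of the 3 fits.

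Of the 3 catalytic subunits of the immunoproteasome, Psmb9 and Psmb10 held the largest differences of the 10 genes. Psmb9 (chr17:34181987-34187764, minus strand) was at 163, 141 and 148 TPM in the set A controls and at 445, 285 and 361 TPM in the set A libraries labelled Reg1Δ/Δ. In set B Psmb9 was at 117 and 120.1 TPM against 209 and 211 TPM. Its lowest library labelled Reg1Δ/Δ was thus well above its highest control in each set, and the log2 difference of Psmb9 was 1.08 (SE 0.14, 95% confidence interval 0.76 to 1.40, limma adjusted p = 0.00018).

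Psmb10 (chr8:105935735-105938444, minus strand), which lies outside the MHC, was at 196, 171 and 178 TPM in the set A controls and at 495, 308 and 473 TPM in the set A libraries labelled Reg1Δ/Δ. In set B Psmb10 was at 119 and 95.8 TPM against 236 and 242 TPM. The groups were again separate, with means 2.34-fold and 2.22-fold higher, and its log2 difference was 1.18 (SE 0.15, 95% confidence interval 0.85 to 1.50, limma adjusted p = 0.000116).

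Psmb8 (chr17:34197721-34201454, plus strand), which sits between Tap1 and Tap2, was the highest of the 3 in the controls and differed less. Its levels were 340.3, 276 and 298 TPM in the set A controls, 613, 393 and 519 TPM in the set A libraries labelled Reg1Δ/Δ, and 295 and 294 TPM against 416 and 405 TPM in set B. The groups of Psmb8 did not overlap, and its log2 difference was 0.62 (SE 0.14, 95% confidence interval 0.32 to 0.93, limma adjusted p = 0.00369). Psmb8, Psmb9 and Psmb10 were past the threshold in all 22 other settings tried, each varying 1 choice, set A alone and set B alone included; the calls in set B alone did not hold under further changes, with 0 when any 1 of its libraries was left out, as for all genes.

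Of the 3 constitutive catalytic subunits that these replace, 2 were also higher (15.0% of all genes tested), and the balance between the forms was taken within each library. Psmb5, the counterpart of Psmb8, had a log2 difference of 0.60 (limma adjusted p = 0.00363), Psmb7, the counterpart of Psmb10, one of 0.45 (limma adjusted p = 0.00352), and Psmb6, the counterpart of Psmb9, one of 0.27 that missed the threshold (limma adjusted p = 0.0656) and passed it with protein-coding transcripts only (0.0296) and under median-of-ratios scaling (0.00114). None of the 3 passed in set B alone (3.51% of all genes higher) or with no covariate for the set (5.56%). The ratio of Psmb9 to Psmb6 was 0.490 to 0.554 in set A controls and 0.837 to 1.11 in set A libraries labelled Reg1Δ/Δ, and 0.345 and 0.426 against 0.583 and 0.654 in set B. The ratio of Psmb10 to Psmb7 was 3.13 to 3.46 against 4.15 to 5.98 in set A, and 0.611 and 0.537 against 0.952 and 1.11 in set B. Both ratios were separate between genotypes in both sets, with means 1.60-fold to 1.86-fold apart.

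The ratio of Psmb8 to Psmb5 did not share this pattern. It was 1.69 to 2.14 in set A controls and 1.65 to 2.29 in set A libraries labelled Reg1Δ/Δ, and 2.21 and 2.65 against 2.17 and 2.64 in set B. These ranges overlapped almost fully, so Psmb8 and its counterpart were higher to a like extent, with ratios of means of 1.04 and 0.991. With 3 libraries against 3 and 2 against 2, the ratios are given as descriptions with no test.

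**Figure D3:**
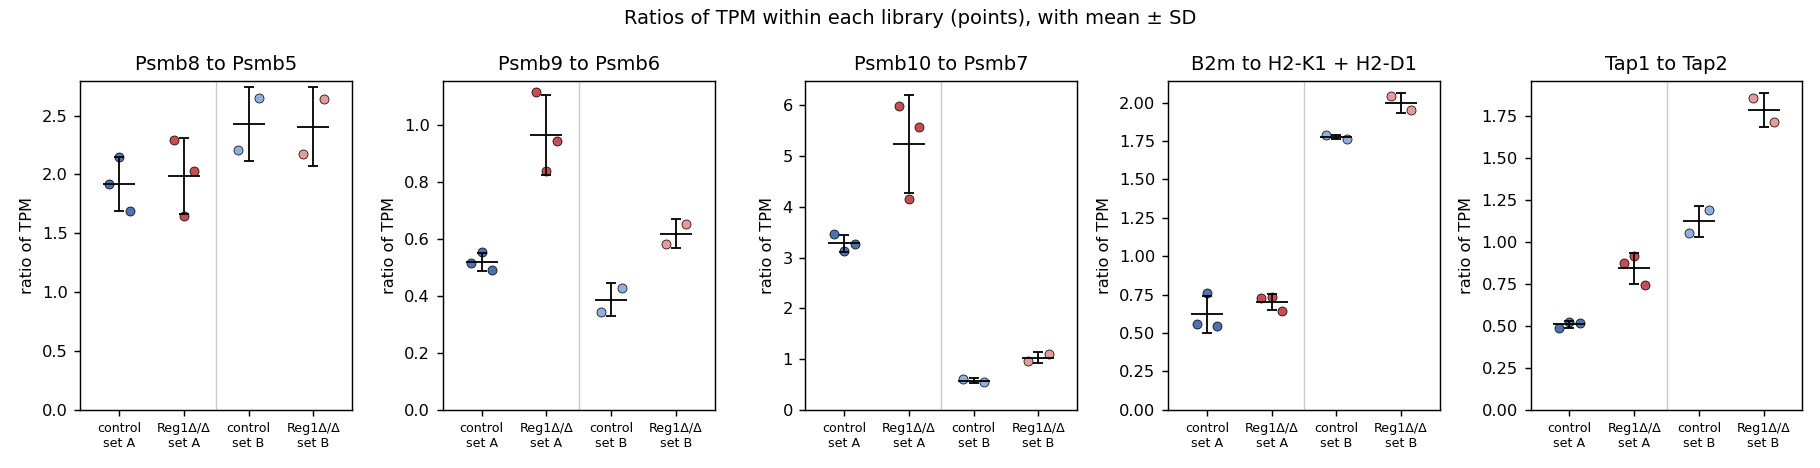
Ratio of TPM values within each library (linear axis, 1 point per library, black lines for mean and SD) for the 3 immunoproteasome subunits over their constitutive counterparts, B2m over the sum of H2-K1 and H2-D1, and Tap1 over Tap2. Psmb9 to Psmb6, Psmb10 to Psmb7 and Tap1 to Tap2 were separate between genotypes in both sets, while Psmb8 to Psmb5 overlapped in both.

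Nlrc5 (chr8:94434356-94527272, plus strand), the transactivator, was the least abundant of the 10 genes and did not pass the test. It was at 19.2, 10.2 and 16.4 TPM in the set A controls and at 20.67, 15.58 and 20.05 TPM in the set A libraries labelled Reg1Δ/Δ, and at 35.0 and 18.5 TPM against 35.8 and 26.6 TPM in set B. The groups overlapped in both sets, and the 2 set B controls, at 18.5 and 35.0 TPM, spanned nearly the whole range of their set. The log2 difference of Nlrc5 was 0.30 (SE 0.21, 95% confidence interval -0.19 to 0.78, limma adjusted p = 0.273). Only 23.8 to 42.2% of its TPM in set A came from coding transcripts.

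All 10 log2 differences were positive in each library set and smaller in set B than in set A, by 0.04 for Psmb10 up to 0.43 for Psmb9. In set A alone 6 of the 10 genes were higher (12.0% of all genes tested), which were B2m, Tap1, Tapbp, Psmb8, Psmb9 and Psmb10. In set B alone Psmb8, Psmb9 and Psmb10 were higher (3.51% of all genes tested). The difference between the sets, tested as an interaction with limma, was called for 0 of the 10 genes, against 0.443% of all genes tested, and for 0 of the 10 at an unadjusted p under 0.05 (12.5% of all genes), which does not show that the sets were alike. The count in set A fell to 3 without control replicate 3 or without Reg1Δ/Δ replicate 1, with 10.2% and 7.67% of all genes then higher. That in set B fell to 0 when any 1 of its 4 libraries was left out, fits in which 0 of all genes were higher.

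Within set A the Reg1Δ/Δ replicate 2 library was the lowest of its group for all 10 genes, and control replicate 2 was the lowest of its group for 9. The same Reg1Δ/Δ library stood apart in Ly6a, which encodes the sorting antigen Sca-1 and was at 50.9 TPM there against 449 and 369 TPM in the other set A libraries labelled Reg1Δ/Δ. It was also the highest of its group in S100a8 (185 against 23.2 and 3.56 TPM), S100a9, Ngp, Camp and Ltf. In Elane and Mpo (43.8 against 138 and 631 TPM for Mpo) it was the lowest. Without that library, 8 genes were still higher (13.1% of all genes tested), and the log2 difference of Psmb10 was 1.29 and that of Tapbp 0.94. The cause of the lower levels in that library was not tested.

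The scale of the values matters for the smaller differences. TPM values are shares of each library, and the median of all genes tested was -0.25 on the log2 scale. Under quantile normalization that median moved to 0.14 and under median-of-ratios scaling to 0.05, and 30.0% and 30.9% of all genes were then higher. Quantile normalization kept 7 of the 10 genes past the threshold: H2-K1 and H2-D1 dropped out, with log2 differences of 0.23 and 0.19 (limma adjusted p = 0.109 and 0.169), and Nlrc5 entered, with 0.68 (limma adjusted p = 0.0439). Under median-of-ratios scaling all 10 genes were higher, Tap2 by 0.52 (limma adjusted p = 0.00805) and Nlrc5 by 0.63 (limma adjusted p = 0.0258). The immunoproteasome subunits, Tap1, Tapbp and B2m were thus past the threshold on each of these scales, while the calls for H2-K1, H2-D1, Tap2 and Nlrc5 depended on the scale.

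The transcripts behind the gene totals differed between the sets. In set A, 47.3 to 49.3% of the H2-K1 level came from a coding transcript model of 579 bases, and 34.9 to 38.0% from the main coding transcript of 1605 bases. In set B the shorter model took at most 0.0276% and the longer one 82.2 to 94.0%. Psmb10 showed the widest gap: its 1 protein-coding transcript, of 1311 bases, took 8.15 to 9.32% of the gene in set A and 71.8 to 86.0% in set B, and a processed transcript of 426 bases took 51.3 to 55.2% and 10.5 to 22.9%. Psmb8 was alike in both sets, with 27.0 to 28.9% and 29.8 to 34.3% in its 1628-base transcript. On the longest coding transcript alone the means of the genotypes differed 2.39-fold and 2.34-fold for Psmb10, 2.45-fold and 1.74-fold for Psmb9, 1.72-fold and 1.67-fold for Tap1, and 1.29-fold and 1.17-fold for H2-K1, in sets A and B. The absolute level of a gene therefore cannot be compared between the sets. The genes Tap1 and Psmb9 also overlap at their starts, and without strand in the libraries reads there cannot be told apart.

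**Figure D4:**
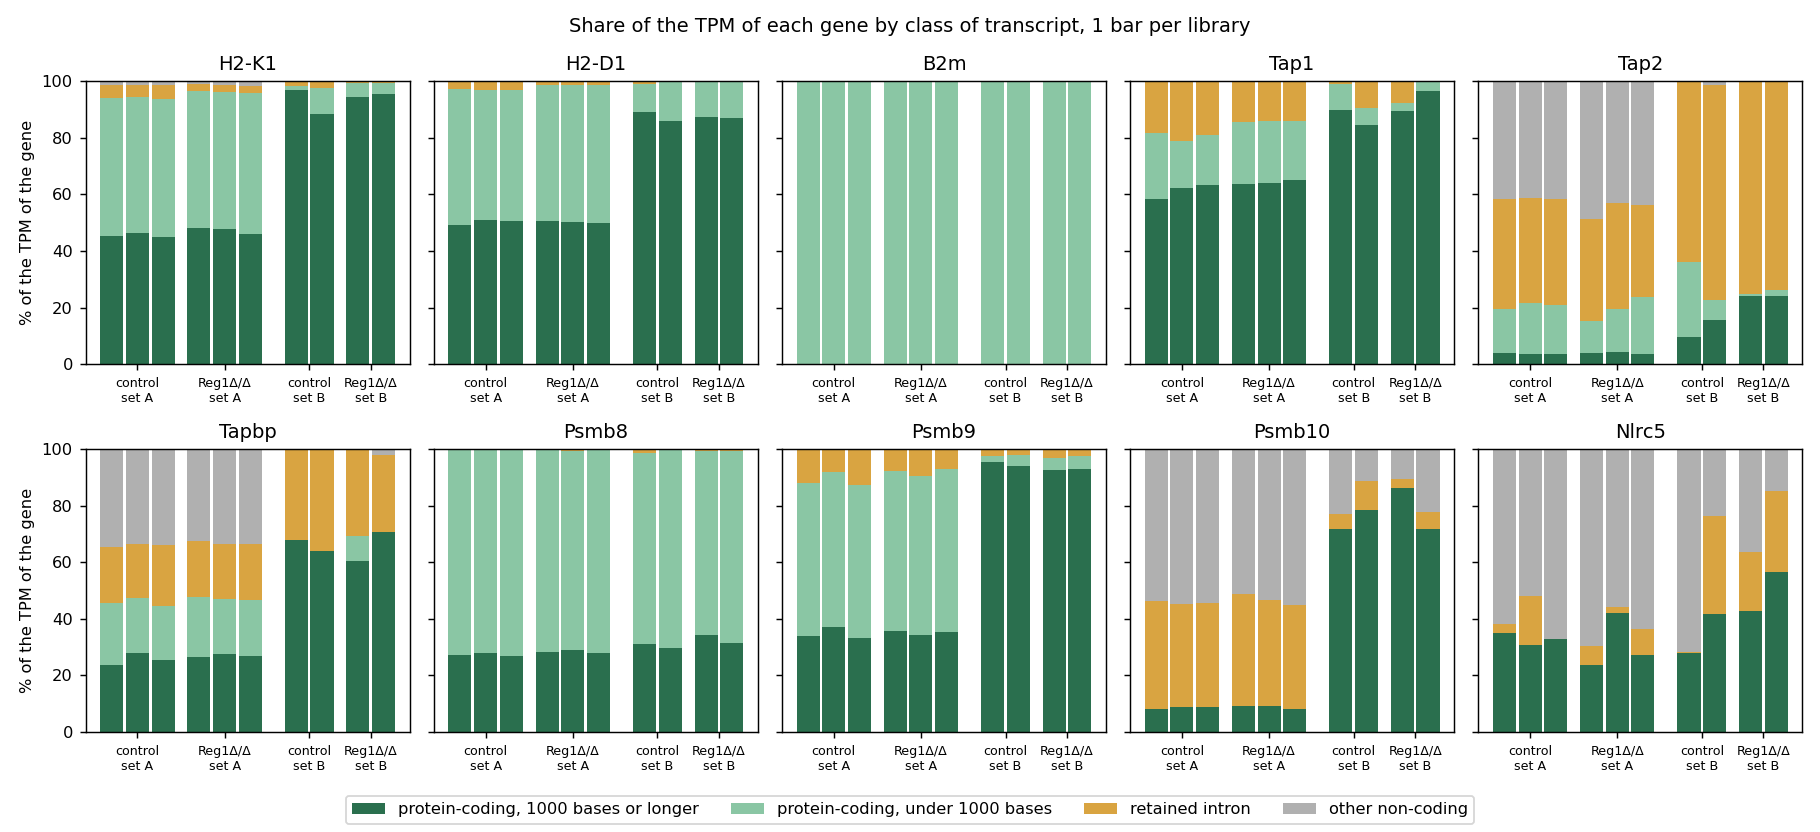
Share of the TPM of each gene (stacked bars to 100%, 1 bar per library) in protein-coding transcripts of 1000 bases or longer (dark green), shorter protein-coding transcripts (light green), retained-intron transcripts (yellow) and other non-coding transcripts (grey). Bars of the same set look alike in both genotypes for most genes, while sets A and B differ, most of all for Psmb10, where the dark green share was 8.15 to 9.32% in set A and 71.8 to 86.0% in set B.

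Around the 10 genes, most other proteasome genes were higher as well. Of 41 outside the members, 37 were higher and none lower, against 15.0% and 37.9% of all genes tested, with a median log2 difference of 0.52. The 11 other subunits of the 20S core, the barrel that holds the catalytic sites, were all higher, from 0.28 to 0.87, with Psma5 (0.87, limma adjusted p = 0.000247) and Psmb3 (0.82, limma adjusted p = 0.0009) ahead. Of 18 subunits of the 19S cap, which unfolds tagged proteins, 16 were higher, led by the ATPase Psmc2 (0.90, limma adjusted p = 0.000115) and by Psmd7 (0.76, limma adjusted p = 0.00013). All 5 assembly factors were higher, with Psmg3 at 0.85 (limma adjusted p = 0.000701) and Psmg1 at 0.64 (limma adjusted p = 0.000683). These counts were lower in other fits. Set B alone gave 1 higher of the 20S core, 5 of the 19S cap and 0 of the assembly factors (3.51% of all genes). A fit with no covariate for the set gave 4, 6 and 2 (5.56% of all genes), and quantile normalization 8, 13 and 4 (30.0%). The log2 differences of Psmb9 and Psmb10 exceeded that of each of these genes and the difference of Psmb8 did not, a comparison given with no test.

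The proteasome activators are caps that open the barrel, and Psme1 and Psme2 form the cap known to be induced by interferon together with the immunoproteasome. Psme2 was higher by 0.90 on the log2 scale (limma adjusted p = 0.000883), Psme1 by 0.68 (limma adjusted p = 0.000872) and Psme3, the nuclear activator, by 0.48 (limma adjusted p = 0.00691). Psme4 was at -0.25 and did not pass (limma adjusted p = 0.524), and its sign turned under both quantile normalization and median-of-ratios scaling. Of the 4 activators, 3 were thus higher, where 15.0% of all genes tested were. With no covariate for the set 0 of the 4 were higher (5.56% of all genes). In set B alone only Psme1 was (limma adjusted p = 0.0396), where 3.51% of all genes were higher.

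Among the chaperones and peptidases that finish class I molecules, 3 of 6 were higher and none lower, against 15.0% and 37.9% of all genes tested. Median-of-ratios scaling gave 5 higher (30.9% of all genes), and quantile normalization (30.0%) and protein-coding transcripts only (17%) 2 each. Set A alone gave 1 higher (12.0% of all genes) and 1 lower, the latter Uggt1. Tapbpl, the tapasin relative TAPBPR that edits peptides, was higher by 0.70 (limma adjusted p = 0.00354), the trimming aminopeptidase Erap1 by 0.42 (limma adjusted p = 0.0151) and the folding chaperone calnexin (Canx) by 0.33 (limma adjusted p = 0.0134). Canx was at 0.22 (limma adjusted p = 0.0687) under quantile normalization and at 0.16 (0.294) with protein-coding transcripts only, and passed in neither. Calreticulin (Calr) was at 0.14 (limma adjusted p = 0.337), the disulfide isomerase Pdia3 at 0.06 (limma adjusted p = 0.716) and the glucosyltransferase Uggt1, which checks folding, at -0.16 (limma adjusted p = 0.377). The signs of Pdia3 and Uggt1 were not the same on every scale.

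**Figure D5:**
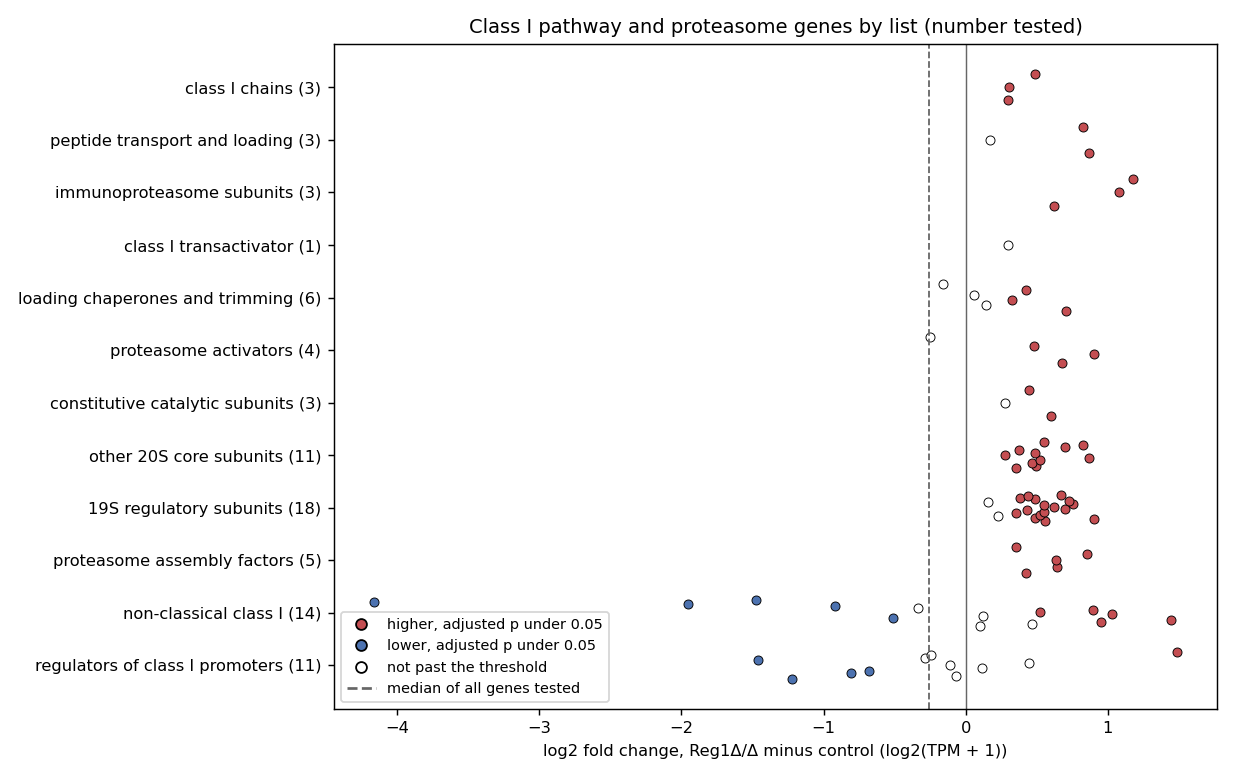
Log2 difference between Reg1Δ/Δ and control libraries (x axis) for each gene tested in 12 lists of class I and proteasome genes, with red points for genes higher and blue for genes lower at an adjusted p under 0.05, and open points for the others. The proteasome lists lie almost wholly right of 0, and the non-classical class I genes and the regulators lie on both sides.

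The non-classical class I genes, relatives of the heavy chains with narrower roles, gave calls in both directions. Of 21 listed, 14 passed the filter on low values, of which 5 were higher and 5 lower, where 15.0% and 37.9% of all genes tested were, and 4 passed in neither direction. The share lower was thus near that of all genes. The counts depended on the scale, as did those of all genes. Quantile normalization gave 8 higher and 3 lower (30.0% of all genes higher and 2636 genes lower), with H2-Q10 turning from -0.51 to 0.53. Median-of-ratios scaling gave 7 and 4 (30.9% of all genes higher and 3425 genes lower). H2-Q7, a Qa-2 antigen, was higher by 1.44 (limma adjusted p = 3.76e-05), from a mean of 176 to 512 TPM in set A and of 173 to 420 TPM in set B, and H2-T22, a ligand of gamma delta T cells, by 1.03 (limma adjusted p = 0.000438). Fcgrt, the neonatal Fc receptor that protects IgG and albumin, fell by 4.16 (limma adjusted p = 1.7e-06), from a mean of 28.5 to 0.876 TPM in set A and of 32.5 to 0.350 TPM in set B. Cd1d1, which presents lipids to NKT cells, fell by 1.96 (limma adjusted p = 7.31e-07). All 4 kept their direction on each scale tried. Of the 31-base words of H2-T22 transcripts 51.0%, and of those of H2-Q7 39.1%, occur in other genes, so their levels are uncertain. H2-Q5 and H2-Q4, named here after their values were seen, differed between the sets in opposite directions: H2-Q5 was at 992 to 2640.3 TPM in set A and 43.9 to 69.0 TPM in set B, and H2-Q4 at 1.80 to 3.11 TPM and 122 to 142 TPM. The cause was not tested.

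Of 11 known regulators of class I promoters, 1 was higher and 4 were lower, where 15.0% and 37.9% of all genes tested were, so both shares were near those of all genes. Quantile normalization gave 2 higher and 2 lower (30.0% of all genes higher and 2636 genes lower). Median-of-ratios scaling gave 2 and 4 (30.9% higher and 3425 genes lower), and set A alone 0 and 4 (12.0% higher). In set B alone, where 3.51% of all genes were higher, Ciita and Irf1 were higher and Irf2 was lower. Ciita, the class II relative of Nlrc5, was higher by 1.49 (limma adjusted p = 0.0038) at means of at most 4.69 TPM, with overlap in set A, where it did not pass alone (limma adjusted p = 0.0685). Irf1, an activator of these promoters, had a log2 difference of 0.44 that missed the threshold (limma adjusted p = 0.0592) and passed it under quantile normalization and median-of-ratios scaling. Irf1 passed in set B alone (0.60, limma adjusted p = 0.0329) and not in set A alone (0.34, 0.312), where the groups overlapped. Irf2, known to compete with Irf1 for the same sites, fell by 1.46 (limma adjusted p = 1.33e-05), and Rfx5, the DNA-binding partner of Nlrc5, fell by 1.23 (limma adjusted p = 0.00128). Rfx5 passed in set A alone (-1.58, limma adjusted p = 0.000213) and not in set B alone (-0.70, 0.358). Its set B controls were at 7.99 and 17.2 TPM, against 7.32 and 6.48 TPM in the set B libraries labelled Reg1Δ/Δ.

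The member profile was also used to look for like genes. Each of the 10 genes was standardised after the mean of its library set was taken off, and the average of the 10 gave 1 profile over the 10 libraries. Of 7213 protein-coding genes outside the lists with a mean of at least 10 TPM, the 5 most like it were Rbm43 (r = 0.98), Nmi (0.98), Ndufa3 (0.98), Rps26 (0.98) and Atp5o (0.97), with log2 differences of 0.52, 0.88, 0.24, 0.29 and 0.57. Nmi encodes an interferon-induced protein, Ndufa3 a subunit of respiratory complex I, Atp5o a subunit of the mitochondrial ATP synthase and Rps26 a ribosomal protein. The r is a description over 10 libraries that share genotype labels and library sets, and carries no test.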

How the data were processed

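RNA from sorted CD34- HSCs was made into cDNA with a SMART-Seq low-input kit and Nextera XT libraries, which do not mark strand, and read as paired ends. The authors mapped reads with STAR to GRCm38 with the GENCODE M17 annotation and estimated TPM per transcript with Salmon 0.9.1; 10 tables of 95912 transcripts were deposited. The deposited values are log2(TPM + 1), undone here and checked to sum to 1000000 per library. TPM keeps no read depth, so depth is unknown and no counting interval is given. One table carries in its header the name of another library; its sample was taken from the deposit record, and its values differ.

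TPM were summed over the transcripts of each gene. Genes at 1 TPM or more in at least 5 of 10 libraries were tested with limma 3.58.1 (R 4.3.3) on log2(TPM + 1) with genotype and library set as terms, Benjamini-Hochberg adjustment over the 12874 genes and a threshold of 0.05; a fold change on this scale understates the change of low genes. The interaction of genotype and set, and each set alone, were fitted on the same genes. Nothing in the labels says that libraries of a group came from separate mice, so p-values measure the spread between these samples. The fit was tested on simulated data.

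The members, gene lists, motifs and naming rule were chosen with earlier results of these data known. Named were all members, every gene of the loading chaperone, proteasome activator and constitutive subunit lists, up to 2 largest rises and 2 largest falls past the threshold with a mean of at least 10 TPM from each other list, Irf1, Rfx5 and Ciita, and the 5 genes most like the members. In all, 9 lists of cell type markers were checked. A few genes of these lists are not reported here and were left out of their counts and sums. Gene coordinates and 31-base words came from GENCODE M21 (GRCm38), a later release than that of the authors; all 56 member transcripts were found in it, 50 in the same version. Promoters were from RefSeq (GRCm38.p6), the first listed start of each gene. Alternatives were other filters, pseudocounts, scalings and covariates, a replicate block, protein-coding transcripts only, the longest coding transcript only (chosen after seeing the data), each set alone and each library left out.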

Additional observations from a re-analysis of the deposited data

How the results depend on the processing

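All 10 genes kept a positive log2 difference in all 22 alternatives, and 0 members were lower in any of them with limma (0 also at an unadjusted p under 0.05 as reported). The 8 members higher became 4 with no covariate for the library set (16 of the other pathway genes higher, 716 genes higher and 3052 lower in all) and 3 in set B alone (12 pathway genes higher and 3 lower, 452 genes higher and 1581 lower), where fewer libraries were fitted. Quantile normalization gave 3861 genes higher, 2636 lower and 5 pathway genes lower. Median-of-ratios scaling gave 3973 genes higher, with 10 members higher in set A alone (27.6% of all genes) and 8 in set B alone (12.1%). With protein-coding transcripts only, 5 members were higher in set B alone (6.62% of all genes). The longest coding transcript alone gave 4 pathway genes lower and 2758 genes lower, among fewer genes tested. With 1 library left out, 6 to 8 members were higher in both sets together (12.0 to 15.2% of all genes); in set A alone 3 to 6 (6.86 to 12.0%), with 3 without control replicate 3 or without Reg1Δ/Δ replicate 1, and in set B alone 0 to 3, with 0 whichever of its 4 libraries was left out (0 of all genes higher too), where the lone library is assumed to vary like the other group. Apart from H2-K1 and H2-D1, no called member lost its call when 1 library was left out of both sets. Psmb8, Psmb9 and Psmb10 were called in every alternative that varied 1 choice. Within set B alone 2 members were higher with no filter (0.539% of all genes), with 1 TPM or more in every sample (5.11%) and with a pseudocount of 0.1 (2.91%). The same count came under quantile normalization (7.86%) and on the longest coding transcript (4.19%). Without a filter H2-D1 had an adjusted p of 0.0557, and with a pseudocount of 0.1 one of 0.0524. Where no cause is named, the cause was not tested.

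Replicate numbers are shared between genotypes, but same-numbered libraries correlated at 0.033, 0.175 and 0.068 in set A and at -0.054 in both pairs of set B, so the numbers were not taken as pairs. With a replicate block 6 members were higher, 44 pathway genes higher and 8 lower (1703 and 4545 of all genes); H2-K1 (adjusted p = 0.0541) and H2-D1 (0.0553) passed no longer. Depth, unknown here, limits what can be said of the lowest levels, among the members Nlrc5 and the full-length Tap2 transcript.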
